A study of Mus musculus with 6 samples.

Results

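The mouse miRNAs described here are the 169 entries that carry a miRBase number of 5000 or more, out of 1247 miRNAs with probes on the array. They were chosen by name alone, with any letter or arm, except for 8 entries set aside by name: miR-5097, miR-5100, miR-5105, miR-5107-5p, miR-5126, miR-6366, miR-6378 and miR-6538. Those 8 were detected on all 6 arrays, and they were set aside with earlier results of these data known, so counts over the 169 entries follow in part from that choice. The 169 entries have 359 of the 3105 miRNA probes, between 2 and 4 probes each, and 152 of them have 2.

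RNA of mProx24, a mouse kidney line (strain C57B6) of proximal tubule epithelium, was hybridised to 1-colour Agilent mouse miRNA arrays under 6 conditions, each measured on 1 array. The control was kept at 20% oxygen in normal glucose, the high glucose culture differed from it in glucose, and the palmitate culture received 150 µM palmitate, a saturated fatty acid, on 0.15% albumin for 9 h. The hypoxia culture spent 12 h at 1% oxygen, the triple stimuli culture combined low oxygen, high glucose and palmitate, and the last culture received the triple stimuli with 0.4 µg/ml rapamycin, an inhibitor of the mTORC1 kinase complex, for 12 h before palmitate. Albumin came only with palmitate, so their parts cannot be told apart, and the glucose concentration was not given in the sources used here. All cultures were of 1 line, and 100 ng of total RNA was labelled for each array.

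A miRNA is a short RNA that guides an Argonaute protein to messenger RNAs, mostly by pairing of its seed, the bases 2 to 8 from its 5′ end, and so lowers their translation and stability. miRBase numbers its entries roughly in the order of deposition, so high numbers mark late entries, most of them found by deep sequencing of small RNA and many with little known function. Some of these entries resemble repeats or fragments of other RNAs, and their standing as miRNAs differs from entry to entry.

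Of the 169 entries, 17 were detected on at least 1 array, and 10 of these on all 6. Mature sequences were found in RefSeq (GRCm38.p6) for 141 of the 169 entries and for 10 of the 17 detected ones. They are shown from 5′ to 3′ with the seed in capitals, because the array gives the values below under these names. Whether other RNAs contribute to the signal of their probes was not tested. The first 5 belong to entries detected on all 6 arrays, and the other 5 to entries detected on some arrays.
miR-5128: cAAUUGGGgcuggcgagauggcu
miR-5622-3p: cUUAGCUGgguagugguggugc
miR-6238: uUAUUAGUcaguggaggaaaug
miR-6368: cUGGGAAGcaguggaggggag
miR-6412: uCGAAACCauccucagcuacua
miR-5119: cAUCUCAUccuggggcugg
miR-5131: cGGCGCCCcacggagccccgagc
miR-5132-5p: gCGUGGGGugguggacucagg
miR-6385: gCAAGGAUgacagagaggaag
miR-6392-3p: gACGCAGGuuugccggguccucu

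For 5 detected entries the array's own probe, a DNA sequence complementary to the 3′ part of the RNA, is given from the deposited scanner files, 5′ to 3′ and with no part marked.
miR-5099 probe: ggagcaccacatcg
miR-5109 probe: tcggattcccctgg
miR-5117-3p probe: tttcagcttaacaatcaat
miR-5117-5p probe: taactttattgatcatcactaac
miR-6243 probe: cgttcagtcataatccc

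The entries lie apart in the genome. On GRCm38, miR-5128 lies at chr2:37688212-37688234 on the minus strand within Strbp, miR-5622-3p at chr2:152865105-152865126 on the plus strand within Tpx2, and miR-6238 at chr7:53891796-53891817 on the minus strand outside the genes of the table used. The entry miR-6368 lies at chr13:28710796-28710816 on the minus strand, within the long non-coding RNA gene 2610307P16Rik on the same strand. The entry miR-6412 lies at chr10:122648412-122648433 on the plus strand, within the long non-coding RNA gene Gm36284 of the opposite strand. Of the entries detected on some arrays, miR-5119 lies at chr11:98262638-98262656 (plus strand) within Cdk12, miR-5131 at chr14:45657972-45657994 (minus strand) within Ddhd1, and miR-5132-5p at chrX:74023571-74023591 (minus strand) within Irak1. The entry miR-6385 lies at chr9:58221155-58221175 on the plus strand, opposite to Pml, and miR-6392-3p at chr15:84168334-84168356 on the plus strand within Pnpla3. Cdk12 encodes a transcription-associated kinase, Irak1 a kinase of interleukin-1 and Toll-like receptor signalling, and Pnpla3 a lipid-handling enzyme; no mRNA was measured here. Among detected entries matched to RefSeq, 7 of 10 lay within a protein-coding gene, against 82 of 131 entries that were not detected. Whether these positions are exonic or intronic was not analysed here.

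Detection required that 0.5 or more of a probe's spots, leaving out those with an outlier flag, lay well above background on an array. One such probe was enough for its miRNA. By this rule 17 of the 169 entries (10.1%) were detected on at least 1 array and 10 (5.92%) on all 6. Of the entries numbered from 3000 up to the set, 20 of 145 (13.8%) were detected on at least 1 array. The share was 16 of 127 (12.6%) for numbers from 1000 to below 3000, and 137 of 798 (17.2%) for numbers below 1000 with let-7. The share was thus lower among the entries numbered 5000 and above than in each of the other number ranges. With the 8 entries set aside put back, it came to 25 of 177 (14.1%), which lies between the shares of the entries from 3000 and of those below 1000. These shares are descriptions of 1 set of arrays and were not tested.

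**Figure D1:**
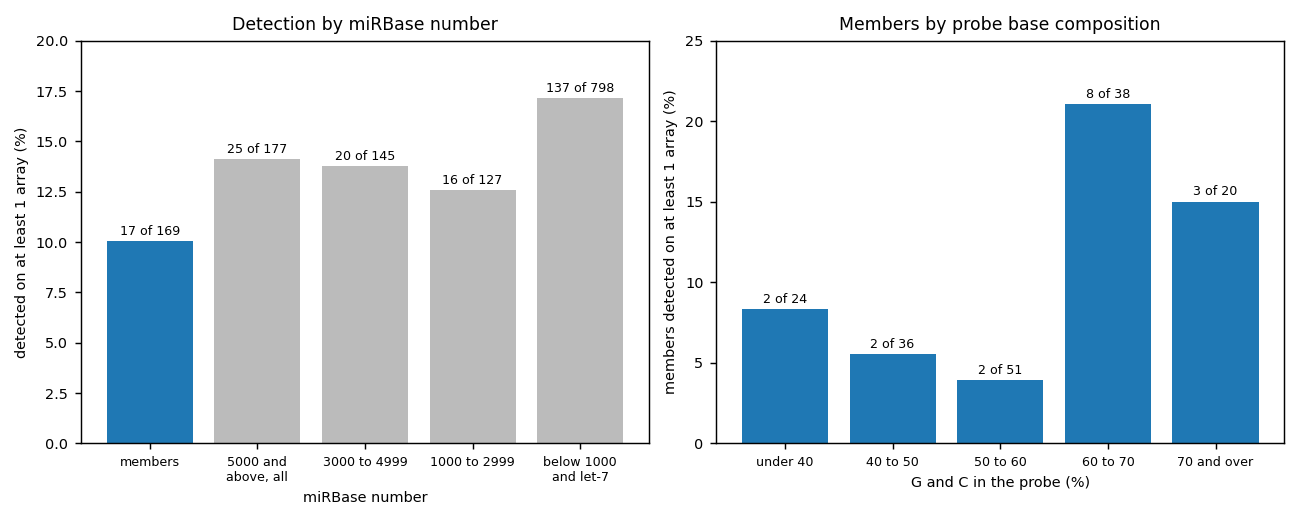
Left, percent of miRNAs detected on at least 1 array, for the entries numbered 5000 and above without (members) and with (all) the 8 entries set aside, and for the other number ranges; right, percent of the 169 entries detected by the GC content of the probe, with the number detected of the number in each bin above each bar. The share was 10.1% without and 14.1% with the 8 entries. In the right panel, which leaves the 8 entries out, it was highest, 21.1%, for probes of 60 to 70% GC. Those 8 entries, all detected, had probes of 64.3 to 100% GC, with a median of 76.6%.

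The number of detected entries differed between arrays. The control array gave 10, the high glucose array 15, and the palmitate and hypoxia arrays 12 each, while both arrays of the triple stimuli, without and with rapamycin, gave 15. By the rule used here, all 10 entries detected in the control were detected on every other array, so each difference was an added entry. Over all 1247 miRNAs the same counts were 164, 189, 162, 172, 183 and 193. Under that rule the 3 arrays with the most detected entries were also those with the most detected miRNAs of all kinds. All 3 came from cultures with high glucose by the labels of the scanner files. By those of the authors' deposited table, which exchanges the high glucose and palmitate arrays, all 3 came from cultures with palmitate. The scanner software's own flag marked 16 entries in control, 18 in high glucose, 15 in palmitate and 18 in hypoxia. It marked 19 on each array of the triple stimuli. By that flag palmitate lay below control, and hypoxia equalled high glucose. The part of array-wide sensitivity was not tested. Between 11.4% and 13.3% of all miRNA spots per array were well above background and none was saturated.

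**Figure D2:**
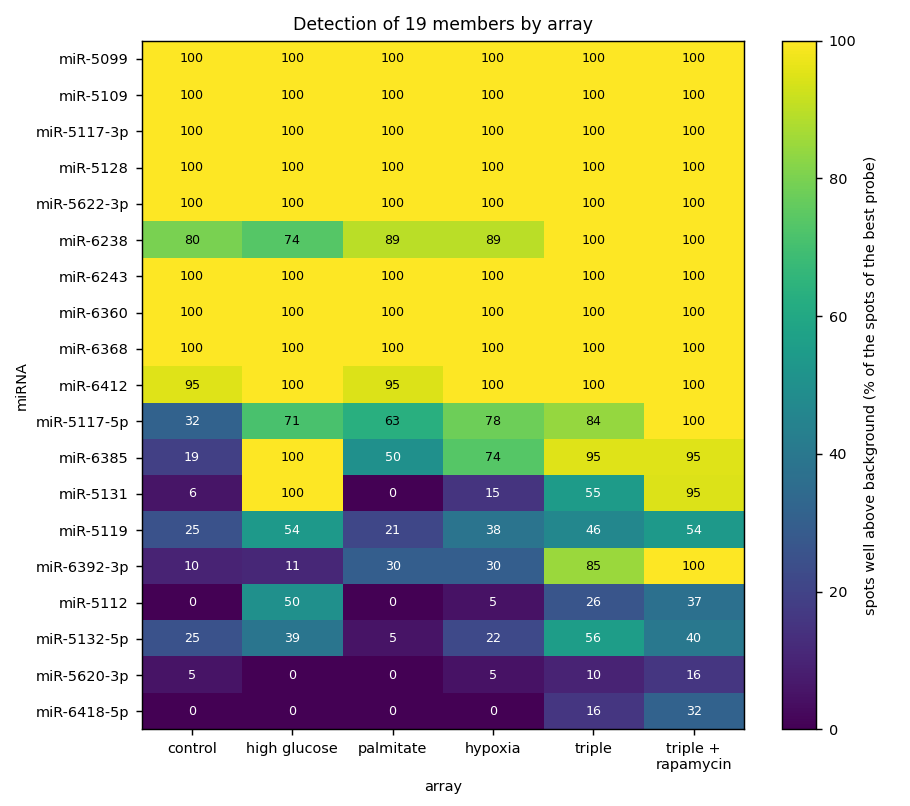
Percent of spots well above background, for the probe with the highest share, of the 17 entries detected on at least 1 array and the 2 that only the scanner software marked (rows) on each of the 6 arrays (columns). The upper 10 rows stay at 73.7% or more in every condition, while miR-5131 ranged from 0% in palmitate to 100% in high glucose.

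The entries detected on all 6 arrays were miR-5099, miR-5109, miR-5117-3p, miR-5128, miR-5622-3p, miR-6238, miR-6243, miR-6360, miR-6368 and miR-6412. The values given are the processed signal, the background-subtracted spot brightness in arbitrary units averaged over spots of the brightest probe, in the order control, high glucose, palmitate, hypoxia, triple stimuli and triple stimuli with rapamycin. Probes differ in how strongly they bind, so signals of different entries are not set against each other. The arrays differed in overall brightness, with a 75th percentile of consistently detected probes from 295 in the control to 382 with rapamycin, so differences between conditions are given after division by that percentile, as log2 values.

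The miR-5109 signal was 6937, 9057, 7046, 6813, 8324 and 8375, with SDs between spots of 154 to 309. It was highest in high glucose, and after scaling the arrays lay within 1.24-fold of each other. The miR-6243 signal was 6561, 6822, 7196, 6896, 8138 and 7888, with SDs between spots of 88.4 to 271. It was highest under the triple stimuli before scaling, and its scaled values likewise spanned 1.24-fold.

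The miR-5099 signal was 151, 182, 170.3, 149, 205 and 194, and its scaled values spanned 1.33-fold. The miR-5622-3p signal was 201, 223, 219.8, 209, 274 and 273, and its scaled values spanned 1.27-fold. The miR-6360 signal was 119.7, 130.5, 126, 130.1, 147 and 143.5, and its scaled values spanned 1.17-fold. Before scaling, all 3 were brightest on the arrays of the triple stimuli with or without rapamycin.

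The miR-5117-3p signal was 179, 234, 194, 214, 237 and 209, with an SD between spots that reached 50.2. This entry is the 3′ arm of a hairpin whose 5′ arm, miR-5117-5p, was detected by the rule used here on every array but the control. The 5′ arm had a signal of 18.4, 26.3, 25.8, 26.7, 31.0 and 33.4. Of 22 hairpins with both arms among the 169 entries, both arms were detected for this 1 alone, 1 arm for 3 and neither for 18.

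The signal of miR-6238 was 27.3, 31.1, 31.3, 31.9, 41.8 and 36.7, and 80.0%, 73.7%, 89.5%, 89.5%, 100% and 100% of its spots were well above background. The signal of miR-6412 was 34.1, 41.0, 32.7, 38.4, 38.2 and 39.1, with a scaled span of 1.13-fold. Both lay near background and rested on 1 probe of 2, since the other probe of each had no spot well above background on any array.

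The entry miR-5128 had a signal of 91.2, 123, 99.6, 104, 152 and 166, with SDs between spots of 8.29 to 14.2. On the scaled log2 axis this was -1.70, -1.55, -1.68, -1.69, -1.19 and -1.21. Control, palmitate and hypoxia thus lay together, high glucose a little above them, and both arrays of the triple stimuli clearly above. Its second probe reached detection on those 2 arrays alone, with 83.3% of spots above background under the triple stimuli and 70% with rapamycin.

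The entry miR-6368 had a signal of 48.0, 84.2, 36.4, 57.2, 66.4 and 69.8, with SDs between spots of 2.86 to 9.30. Its scaled log2 values were -2.62, -2.10, -3.13, -2.55, -2.38 and -2.45. High glucose was highest and palmitate lowest, 2.05-fold apart, while the other 9 entries detected throughout spanned 1.13-fold to 1.42-fold. All spots kept after outlier flags were above background for both of its probes on all 6 arrays, except in palmitate, where the second probe had 95% of them.

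**Figure D3:**
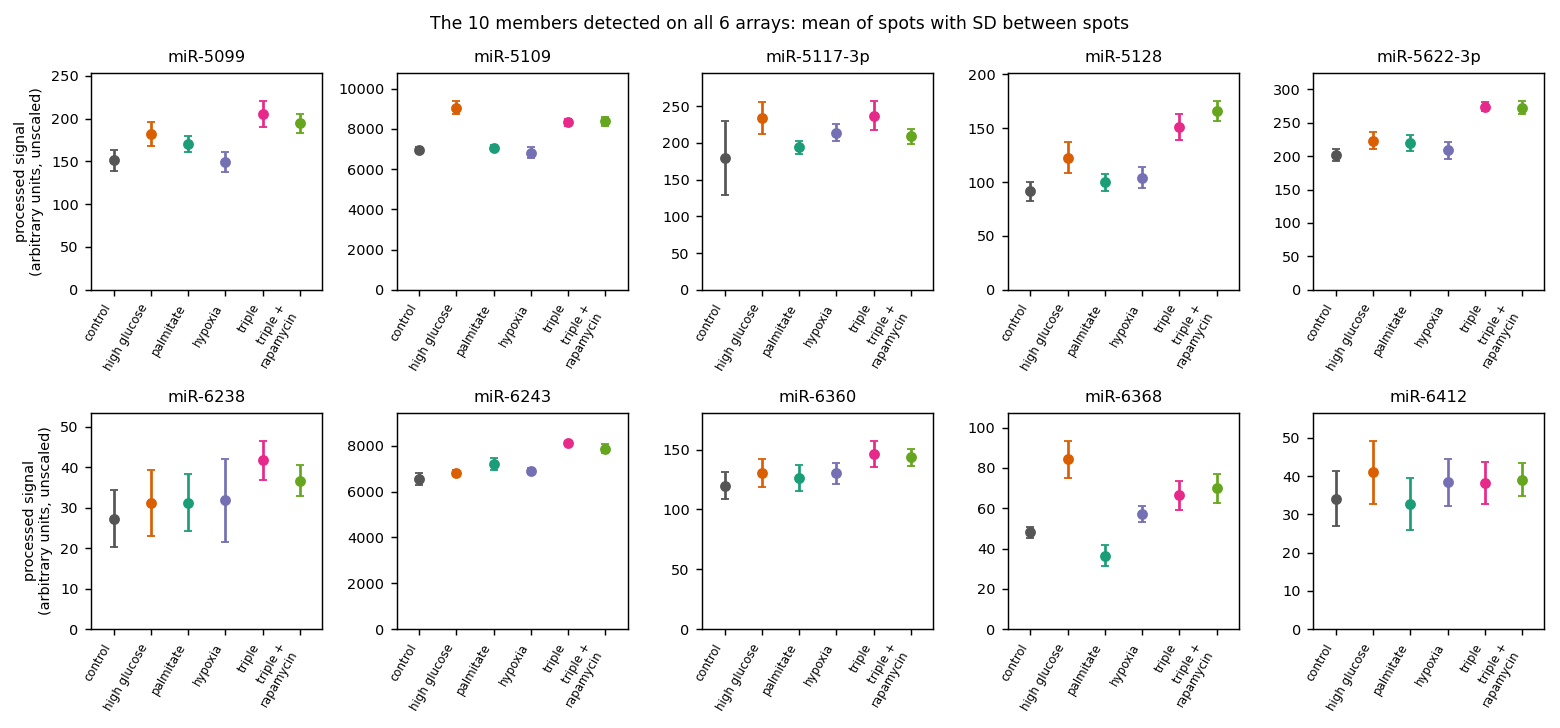
Processed signal in arbitrary units, not scaled between arrays, of the 10 entries detected on all 6 arrays (members), 1 panel each, with a point per array and every axis from 0. Bars are the SD between spots of the brightest probe within an array and hold no spread between cultures; miR-6368 ran from 36.4 in palmitate to 84.2 in high glucose, and miR-5128 was highest on both triple stimuli arrays, at 152 and 166.

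The 7 entries detected on some arrays were at the edge of background. Besides miR-5117-5p, miR-6385 was detected on all arrays but the control, with a signal of 21.5, 30.3, 23.7, 24.8, 31.5 and 33.0. The share of its spots above background was 18.8% in the control, 50% in palmitate, which is just at the limit, and 100% in high glucose. Both entries were thus seen, by the rule used here, on the same 5 arrays. The scanner software's own flag marked miR-5117-5p on all 6 arrays. In the authors' deposited table both also lay above the lowest value in the control, at 0.247 for miR-5117-5p and 0.527 for miR-6385.

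The entry miR-5131, within the Ddhd1 gene, had a signal of 12.5, 36.7, 13.7, 14.6, 22.4 and 29.2. The share of its spots above background was 5.56%, 100%, 0%, 15.0%, 55.0% and 94.7%. By the rule used here, it was detected on the 3 arrays labelled as given high glucose in the scanner files and on no other. With the high glucose and palmitate labels exchanged, as the authors' deposited table has them, these would be the 3 arrays given palmitate. The scanner software's own flag marked miR-5131 on 4 arrays. In the deposited table it also lay above the lowest value in hypoxia, at 0.182. High glucose exceeded control by at least 1.52-fold, the only bound of 1.5-fold or more among the 169 entries in that comparison, against 7 over all miRNAs. Over the 8 alternative settings that gave a bound it ran from 1.03-fold to 1.94-fold.

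The entry miR-6392-3p, within the Pnpla3 gene, had a signal of 16.3, 18.4, 22.4, 20.9, 28.6 and 31.2, and the share of its spots above background was 10.0%, 11.1%, 30.0%, 30.0%, 85.0% and 100%. By the rule used here, it was detected only under the triple stimuli, with and without rapamycin. In the authors' deposited table, however, miR-6392-3p lay above the lowest value on all 6 arrays. The triple stimuli without rapamycin exceeded control by at least 1.23-fold. The entry miR-5119 had a signal of 18.9, 22.2, 17.3, 20.8, 21.2 and 23.1 and was detected in high glucose and with rapamycin, at 53.8% of spots on both arrays. The entry miR-5112 passed in high glucose only, at 50% of its spots, and miR-5132-5p under the triple stimuli only, at 55.6%. These last 3 entries passed the detection limit by at most a few spots. The scanner software's own flag marked miR-5119 and miR-5132-5p on all 6 arrays and miR-5112 on 4.

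The other 152 entries were not detected on any array. Of these, 144 had no spot well above background on any array, and 8 had at least 1, up to 31.6% of the spots of 1 array. The scanner software's own flag, which uses a summed signal and its error, marked 19 entries on at least 1 array and 15 on all 6. The entries it marked that the rule used here never did were miR-5620-3p, marked on 5 arrays, and miR-6418-5p, marked on 2. Over all 6 arrays, marked or not, their signals ran from 14.3 to 17.5 and from 4.68 to 19.9.

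Some of the undetected entries carry the seed of an abundant miRNA family. By exact match of bases 2 to 8 in RefSeq, 14 entries have the seed of a detected miRNA outside the set. None of these 14 was detected, beside 10 of all 141 entries matched to RefSeq. The 14 include 4 with the seed of miR-24-3p and 3 with that of miR-15a-5p. They also include 2 each with those of miR-130a-3p, miR-206-3p and miR-125a-5p, and 1 with that of miR-17-5p. For each seed, the lowest-numbered such entry is shown over a detected relative. The pairs share the seed in capitals and differ in part of the bases downstream of it. In some pairs the match runs on past the seed, furthest in miR-6367 and miR-125a-5p. The brightest probes of all 141 matched entries pair with the 3′ end of the mature RNA.
miR-5124b: uGGCUCAGugacuaagaagca
miR-24-3p: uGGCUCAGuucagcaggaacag
miR-6341: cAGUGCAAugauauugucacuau
miR-130a-3p: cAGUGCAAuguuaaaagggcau
miR-6342: cAGCAGCAaucuggucuuugag
miR-15a-5p: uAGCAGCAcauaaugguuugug
miR-6349: uGGAAUGUgggaggggcaugcg
miR-206-3p: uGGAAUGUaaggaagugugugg
miR-6367: uCCCUGAGacccugguucagga
miR-125a-5p: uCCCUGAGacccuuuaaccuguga
miR-6383: uAAAGUGCugugucacggaca
miR-17-5p: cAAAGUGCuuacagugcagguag

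The 6 relatives from older families were detected on all 6 arrays. The families are known for roles in cell-cycle control (miR-15, miR-17 and miR-24), in muscle (miR-206) and in differentiation (miR-125 and miR-130). On GRCm38 the undetected entries shown lie at chr14:11282482-11282502 (miR-5124b), chr1:12426016-12426038 (miR-6341), chr1:29421552-29421573 (miR-6342) and chrX:136183262-136183282 (miR-6383), all on the plus strand. The entries miR-6349 and miR-6367 lie at chr1:39186908-39186929 and chr16:91527468-91527489, both on the minus strand. Their relatives miR-24-3p (chr8:84208875-84208896, 1 of 2 copies), miR-206-3p (chr1:20679055-20679076), miR-125a-5p (chr17:17830817-17830840) and miR-17-5p (chr14:115043684-115043706) lie on the plus strand, and miR-130a-3p (chr2:84741116-84741137) and miR-15a-5p (chr14:61632075-61632096) on the minus strand. Whether these entries are absent from the cells or lie below what the array can detect cannot be told apart here.

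Within the set, miR-6368 shares its seed with 2 entries that were not detected, miR-6404 (chr7:143933171-143933191, plus strand) and miR-6405 (chr19:44808501-44808523, plus strand). The other 9 detected entries matched to RefSeq share their seed with no other matched miRNA of the array. The sequences of the 2 undetected entries are given to set beside that of miR-6368. The bases of miR-6405 directly after the seed also match miR-6368, a longer common stretch than the 9 bases shown further below.
miR-6404: gUGGGAAGugacaagggguag
miR-6405: gUGGGAAGcagugggaagcagug

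The stretch matched by the probe was also compared with the sequences of other detected miRNAs. Runs of 9 bases were shared by miR-5128 with miR-3473a, miR-3473b and miR-3473e, and by miR-5119 with miR-1934-3p and miR-5128. Away from the seed, miR-6368 likewise shares a run of 9 bases with miR-6238, shown in capitals.
miR-6238: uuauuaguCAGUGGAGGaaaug
miR-6368: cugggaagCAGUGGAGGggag

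The detected entries differed from the undetected ones in base composition. The median GC content of the brightest probe was 64.3% among the 17 detected entries and 53.3% among the 152 others, while outside the set it was 52.9% for detected and 50% for undetected miRNAs. Detection was recorded for 2 of 24 entries with a probe under 40% GC, 2 of 36 at 40 to 50%, 2 of 51 at 50 to 60%, 8 of 38 at 60 to 70% and 3 of 20 at 70% or more. The share was thus 21.1% at 60 to 70% GC and 3.92% at 50 to 60%. The 8 entries set aside, all detected and not counted in these bins, had probes of 64.3 to 100% GC, with a median of 76.6%. Counting them would raise the shares of the bins from 60% GC upward, so the bin with the highest share depends on leaving them out. The part of probe binding strength in these shares was not tested.

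Most entries have 2 probes, and not all of them gave signal. Every probe was detected on all 6 arrays for 5 of the 10 entries detected throughout (50%), namely miR-5109, miR-5622-3p, miR-6243, miR-6360 and miR-6368, against 108 of 144 other miRNAs (75%). In 7 of the 17 detected entries 1 probe had no spot above background on any array; these were miR-5117-3p, miR-5117-5p, miR-5131, miR-5132-5p, miR-6238, miR-6392-3p and miR-6412. Values of these 7 entries rest on the remaining probes.

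Comparisons between conditions set 1 array against 1 array, which leaves the spread between cultures unmeasured, and no p-value is given. A call, higher or lower, needed detection on both arrays, a ratio of 1.5-fold or more and a difference beyond 2 standard errors between spots. Those errors cover the spread within an array alone. No entry of the 169 was called in the comparisons of high glucose, palmitate, hypoxia and triple stimuli with control, of triple stimuli with hypoxia, or of rapamycin with triple stimuli. Comparisons that share the control array are not independent of each other.

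In high glucose against control, 0 of 10 entries measured on both arrays were called, beside 6.79% called higher and 0% lower over the 162 miRNAs measured on both. The entries had a median log2 difference of -0.02, against -0.05 over all miRNAs. Other settings put these medians at -0.13 to 0.27 and -0.17 to 0.23, so neither had a stable sign. They ranged from -0.23 for miR-6243 to 0.53 for miR-6368 (spot SE 0.04), which lay just inside the fold limit. With normexp, a model-based background correction, miR-6368 gave 0.15, and without scaling between arrays 0.81. Of the 8 entries set aside, 3 were called higher.

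In palmitate against control, 0 of 10 entries were called, beside 0% called higher and 2.58% lower over 155 miRNAs. The median was 0.01 for the entries (-0.25 to 0.20 under other settings) and -0.03 for all miRNAs (-0.25 to 0.15). The entries ranged from -0.51 for miR-6368 (spot SE 0.05) to 0.09 for miR-6238, so miR-6368 lay at the lower end here and at the upper end in high glucose. Of the 8 entries set aside, 3 were called lower.

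In hypoxia against control, 0 of 10 entries were called, beside 0% called higher and 1.85% lower over 162 miRNAs. The entries ranged from -0.21 for miR-5109 to 0.07 for miR-5117-3p, with a median of -0.04 (-0.09 to 0.15 under other settings) against -0.11 for all (-0.12 to 0.08). Of the 6 planned comparisons, this gave the entries the narrowest range.

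In the triple stimuli against control, 0 of 10 entries were called, beside 5.62% called higher and 0% lower over 160 miRNAs. The entries had a median of 0.19, with 9 of 10 above 0, against a median of 0.01 for all miRNAs. Other settings moved both medians, that of the entries between 0.02 and 0.42 and that of all miRNAs between -0.16 and 0.24, and the entries' median lay 0.11 to 0.20 above. The entries ranged from -0.07 for miR-6412 to 0.50 for miR-5128 (spot SE 0.04), which gave 0.27 with normexp and 0.73 without scaling. Of the 8 entries set aside, 3 were called higher. The triple stimuli against hypoxia gave 0 of 12 entries called, beside 8.82% called higher and 0% lower over 170 miRNAs, a median of 0.22 with 11 of 12 above 0, against 0.10 for all. Other settings put the entries' median between 0.02 and 0.26 and that of all miRNAs between -0.11 and 0.15. The upper end was again miR-5128, at 0.49, and the 2 comparisons share the triple stimuli array.

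In rapamycin with the triple stimuli against the triple stimuli alone, 0 of 14 entries were called, beside 2.21% called higher and 1.66% lower over 181 miRNAs. The entries had a median of -0.12, with 13 of 14 below 0, against -0.07 for all miRNAs. The sign of both medians turned with the scaling: without scaling they were 0.02 and 0.07, and with the 75th percentile over all probes 0.11 and 0.15. The entries' median minus that of all miRNAs was -0.04, and ran from -0.087 to -0.0065 under the 11 alternatives. They ranged from -0.33 for miR-6238 to 0.24 for miR-5131. The scaled value of miR-5128 was -1.21 with rapamycin and -1.19 without.

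**Figure D4:**
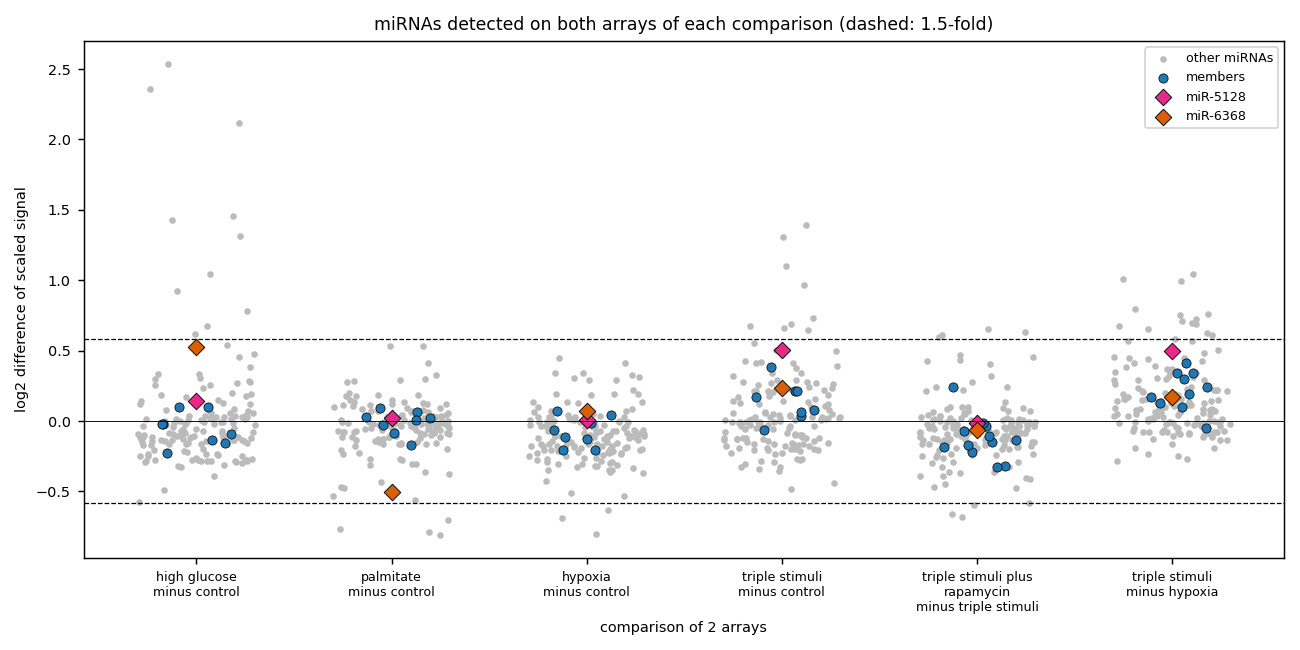
Log2 difference of scaled signal in the 6 planned comparisons of 2 arrays, with 1 point for each miRNA detected on both arrays, the entries numbered 5000 and above (members) in colour, other miRNAs in grey and dashed lines at 1.5-fold. No coloured point passes a line; miR-6368 lies at 0.53 in high glucose and -0.51 in palmitate, and miR-5128 at 0.50 under the triple stimuli.

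Because miR-6368 lay at opposite ends in high glucose and palmitate, those 2 arrays were also set against each other, a comparison added after its values were seen. It gave 1 of 12 entries called higher, miR-6368 at 1.03 on the log2 scale, beside 7.45% called higher and 0% lower over 161 miRNAs. Its second probe gave 0.92, against 0.52 in high glucose and -0.40 in palmitate relative to control. The authors' deposited table of processed values holds these 2 arrays under exchanged labels: its palmitate column matched the scanner file of high glucose for 70.6% of miRNAs within 0.1%, and its high glucose column that of palmitate for 70.9%. Under the table's labels, miR-6368 would be lower in high glucose than in palmitate, and the bound of miR-5131 in high glucose would go to palmitate. Which labelling is right cannot be told from the files, so the direction between these 2 conditions is that of the scanner files.

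Groups of 3 arrays allow a test over all 154 miRNAs detected throughout, with the other treatments spread unevenly over the sides. For 1% against 20% oxygen, limma called 0 of 10 entries and 0% of the 154 miRNAs after Benjamini-Hochberg adjustment, and 7 of the 154 but no entry had an unadjusted p under 0.05. The entries had a median log2 difference of 0.02 and ranged from -0.10 for miR-5109 to 0.28 for miR-5128 (SE 0.15, limma adjusted p = 0.884). No entry had arrays that did not overlap between the oxygen levels, beside 11% of all miRNAs tested. The oxygen groups are also the 2 rows of the slide, so oxygen and slide row cannot be told apart.

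For arrays with against without high glucose, limma called 0 of 10 entries, beside 9.74% of the 154 miRNAs (15, of which 13 were higher). The sides follow the scanner files' labels. Under the labels of the authors' deposited table, the same 3 arrays with high glucose would be those given palmitate. The entry with the lowest p was miR-5128, with a mean log2 value of -1.32 ± 0.20 (SD, n = 3 arrays) with high glucose and -1.69 ± 0.01 without, a difference of 0.37 (SE 0.11, limma adjusted p = 0.0790). Next was miR-6368, at -2.31 ± 0.19 (SD, n = 3) and -2.77 ± 0.31, a difference of 0.46 (SE 0.17, limma adjusted p = 0.175). These 2 of 10 entries had groups that did not overlap, beside 29.2% of all miRNAs tested. Within the slide row at 20% oxygen the difference was 0.13 for miR-5128 and 0.78 for miR-6368, and within the row at 1% oxygen it was 0.49 and 0.13. The 3 arrays with high glucose include both with the triple stimuli, and the arrays are single cultures of different treatments rather than replicates, so the test measures the spread between them. Its call for miR-5128 changed when the high glucose array was left out, giving 0.49 with a limma adjusted p of 0.0103.

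As a check of the cell type, 4 of 7 kidney miRNAs were detected (miR-10a-5p, miR-10b-5p, miR-30a-5p and miR-30c-5p) while miR-192-5p, miR-194-5p and miR-204-5p were not. None of 5 epithelial miRNAs of the miR-200 family, 3 blood, 1 endothelial or 2 fibroblast and smooth muscle miRNAs was detected on any array. Of 6 miRNAs of muscle, neuron and hepatocyte, miR-206-3p was detected on all arrays.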

How the data were processed

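Agilent Feature Extraction 10.7.3.1, named in the submitters' processing notes, gave the deposited scanner files, with a background-subtracted intensity per spot and flag columns of other kinds (well above background, outlier, saturated) per the file headers. The authors' deposited value table holds a linear signal per miRNA, not centred, whose scaling factor stays unknown; its column medians equal its floors, from 0.00341 to 0.00475. Its high glucose and palmitate columns match each other's scanner files. The scanner files' labels were followed.

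Here, spots without an outlier flag were averaged per probe (median 18 spots), divided by the array's own 75th percentile of 281 always-detected probes, floored at the lowest detected signal and moved to log2; the brightest probe stood for a miRNA. A bound sets the brighter array against the higher of the entry's signal and the floor on the dimmer one. limma 3.58.1 in R 4.3.3 (lmFit, eBayes, two-sided, Benjamini-Hochberg, threshold 0.05) was fitted over all 154 miRNAs. Both rules were tested on simulated data. Array number, with 1 per condition, limits the precision.

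Entries detected on at least 1 array were named, with full values for those detected on all 6 or with a bound of 1.5-fold. The entries and lists were chosen with earlier results of these data known. The file headers name mm9, but probe positions there lay within the RefSeq GRCm38 positions for 76 of 76 plus-strand and 0 of 59 minus-strand entries, so positions are those of RefSeq. Alternatives covered scaling, background correction, probe summary, flags, detection, fold limit, exchanged labels, the value table, the filter, the slide row as a block and each array left out.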

Additional observations from a re-analysis of the deposited data

How the results depend on the processing

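Of 122 comparisons of a count of entries with its value under another setting, 116 stayed within 1.5 times and 6 did not. Without scaling, 1 entry was called in high glucose against control (miR-6368) and 2 in triple stimuli against control (miR-5128 and miR-6238). The median of all miRNAs in these comparisons was then 0.23 and 0.24, and the share of all miRNAs called is not given here. With against without high glucose, 4 entries were called without scaling (miR-5099, miR-5109, miR-5128 and miR-6368), beside 48 of 154 miRNAs. High glucose against palmitate was a comparison chosen, with its alternatives, after seeing the data. There normexp called 0 entries, and 2 were called in the authors' deposited table (miR-6368 and miR-6392-3p, in opposite directions). The share of all miRNAs called under these 2 settings is not given here. Leaving out 1 array gave 0 to 1 entries with against without high glucose, the 1 being miR-5128 without the high glucose array (10 of 154 miRNAs called). Its limma adjusted p there ran from 0.0133 to 0.813 over the other alternatives. The difference of miR-6368 reversed to -1.03 between high glucose and palmitate with labels exchanged and to -0.77 in the deposited table, and to -0.23 with against without high glucose with labels exchanged. For oxygen it reversed to -0.018 with normexp, and leaving out 1 array gave -0.10 (without palmitate) to 0.41. Detected entries ranged from 14 to 25, and from 8 to 15 on all 6 arrays. No scaling and other scalings moved the median of all miRNAs by over 0.1. Signals near background limit all entries detected on some arrays. Causes were not tested. No paired analysis was possible because each condition has 1 array and the labels carry no replicate numbers.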
